A study of Mus musculus with 74 samples.

Results

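The 7 genes described here act where lipoproteins meet the cell surface or release their fatty acids: the receptors *Vldlr* and *Lrp1*, the scavenger receptors *Cd36* and *Scarb1*, the lipases *Lpl* and *Lipc*, and the lipase inhibitor *Angptl4*. They were chosen by symbol, and each was followed in liver of knockout mice against liver of their control mice. All 7 were among the 14583 gene rows of the RNA-seq table, and all 7 passed its filter on low counts. In the 11 ChIP-seq peak tables, 872 of 743949 peak rows named 1 of the 7 as the nearest gene.

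Triglyceride-rich lipoproteins give up fatty acids to lipases anchored on the capillary wall, and the remnants are then cleared, mainly by hepatocytes. LPL does the first step in fat, muscle and heart and is little made by adult hepatocytes, whereas hepatic lipase (*Lipc*) is made in the liver and acts on remnants and on high-density lipoprotein (HDL). ANGPTL4 inactivates LPL, and its gene is a well-known target of PPARα, the nuclear receptor that switches on fatty acid oxidation genes in fasting. VLDLR and LRP1 take up lipoproteins by endocytosis, CD36 takes up long-chain fatty acids and modified lipoproteins, and SR-BI, encoded by *Scarb1*, takes cholesteryl esters from HDL. GPS2 is a subunit of the corepressor complex built around the scaffolds NCOR and SMRT, which binds nuclear receptors and removes histone acetylation.

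Whole liver was taken from C57BL/6 mice labelled 8 to 12 weeks old and fed chow. In the *Gps2* LKO, floxed *Gps2* was deleted by Cre driven by the albumin promoter, which acts in hepatocytes, so other liver cells kept the gene. Its WT controls were floxed littermates. The *Ncor* LKO and *Smrt* LKO were also liver-specific knockouts, each with its own WT group, and the *Ppara* KO lacked PPARα in the whole body. RNA-seq compared *Gps2* LKO with WT in 4 libraries each. H3K27ac, a histone mark of active enhancers and promoters, was measured in 2 *Gps2* LKO and 2 WT libraries, and in 3 LKO and 3 WT libraries of the *Ncor* line and of the *Smrt* line. H3K4me3, a mark of active promoters, was measured in 2 *Gps2* LKO and 2 WT libraries. Binding of GPS2 was measured in the *Ncor* and *Ppara* lines, binding of NCOR in the *Gps2* and *Ppara* lines, and binding of PPARα in the *Gps2* and *Ncor* lines, with 3 libraries a group throughout. PPARα binding in the *Ppara* line had 2 libraries a group, and GPS2 binding and RNA polymerase II (Pol II) in the *Gps2* line had 1 library a group. According to the methods of the study, several immunoprecipitations were pooled for each ChIP library. The labels do not tie libraries to animals, so p-values measure the spread between libraries.

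RNA libraries held 13194385 to 20086127 counted reads. *Gps2* itself, the targeted gene, had 240 to 266 normalized counts in WT and 146 to 205 in LKO (log2 fold change -0.53 ± 0.11 (SE), edgeR quasi-likelihood adjusted p = 0.00210), counted over the whole gene. The 3 WT libraries of PPARα in the *Gps2* line differed by no more than sampling noise and were counted as 1 sample. The p-values of that comparison therefore rest on the spread of its 3 LKO libraries alone. In the RNA table, change in LKO ran with gene length (Spearman rho -0.40 over 12220 genes, which are not independent replicates), and length-corrected values of the 7 genes are shown in the plot of fold changes in 3 fits. Markers of other cells were also called higher in LKO. These were 8 of 9 macrophage and Kupffer cell markers, all 7 stellate cell markers and 3 of 8 endothelial markers. Of 6 hepatocyte markers, 3 were higher and 1 lower. Of all 12220 genes tested, 23.4% were called higher and 21.4% lower, shares that are without a length correction. With the length correction these counts were 7, 7 and 5 higher, with 2 hepatocyte markers higher and 1 lower. Of the 6 adipocyte markers listed, *Adipoq*, *Plin1*, *Lep* and *Retn* had no row in the RNA table, nor had the 5 muscle markers. The other 2, *Cfd* and *Cidec*, summed to 16.8 to 25.9 normalized counts in WT and 25.1 to 38.4 in LKO, with overlap. The 1 of them tested was not called (log2 fold change 0.50). The H3K27ac libraries of the *Smrt* line had 0 tags in the 5 peaks on the Y chromosome and 249 to 289 in the *Xist* peak, in tags scaled to a library total of 10000000 (normalized tags). Those of the *Ncor* line had 306 to 371 normalized tags in the Y peaks and 2.93 to 4.92 in the *Xist* peak, although the methods name male mice throughout. This difference and the line cannot be told apart.

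The sites that carry the ChIP results are shown first. For each gene, the leading GPS2 site is the peak of the GPS2 table of the *Gps2* line with the most WT tags. At the leading sites of *Lrp1* and *Angptl4*, both in introns, capitals mark the closest match to DR1, the direct repeat of AGGTCA with 1 base between that PPARα binds with its partner RXR. Each of these had 2 mismatches in the 12 fixed bases. The leading sites of *Vldlr* and *Lipc*, whose RNA and H3K27ac changed, had 3 mismatches and carry no capitals. Sequences of 137 bases each are from the forward strand of the mouse build mm9.
*Lrp1*, chr10:127049267-127049403, intron 2: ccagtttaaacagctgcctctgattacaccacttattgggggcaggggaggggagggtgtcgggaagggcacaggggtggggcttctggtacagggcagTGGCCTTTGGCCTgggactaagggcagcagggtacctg
*Angptl4*, chr17:33916225-33916361, intron 3: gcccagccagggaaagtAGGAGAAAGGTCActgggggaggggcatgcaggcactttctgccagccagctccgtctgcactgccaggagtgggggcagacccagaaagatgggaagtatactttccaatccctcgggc
*Vldlr*, chr19:27310524-27310660, intron 4: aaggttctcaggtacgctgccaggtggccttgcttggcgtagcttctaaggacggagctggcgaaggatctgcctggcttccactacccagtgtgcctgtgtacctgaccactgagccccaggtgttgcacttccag
*Lipc*, chr9:70788038-70788174, intron 1: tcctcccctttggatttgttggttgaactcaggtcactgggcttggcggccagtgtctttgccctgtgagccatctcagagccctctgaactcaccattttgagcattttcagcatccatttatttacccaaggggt

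With at most 1 mismatch on either strand, DR1 was found in 0 of the 69 GPS2 peaks of the 7 genes, in windows of 137 bases at the peak centre, against 1.89% of all 48960 GPS2 windows. It was found in 4 of their 117 PPARα peaks of the *Gps2* line (3.42%, all peaks 2.95%), in 1 peak each of *Scarb1*, *Cd36*, *Vldlr* and *Lipc*. In the *Ppara* line it was found in 4 of 65 PPARα peaks (6.15%, all peaks 2.77%), 1 each at *Angptl4*, *Scarb1*, *Cd36* and *Lipc*. For NCOR it was 3 of 121 peaks in the *Ppara* line (2.48%, all peaks 1.89%) and 3 of 96 in the *Gps2* line (3.12%, all peaks 1.7%). In each line these lay 1 each at *Angptl4*, *Cd36* and *Scarb1*. The windows of *Scarb1*, *Cd36* and *Vldlr* from the PPARα peaks of the *Gps2* line are shown with the match in capitals. PPARα levels are given below for those of *Scarb1* and *Vldlr*, and H3K27ac of the *Ncor* line over that of *Cd36*.
*Scarb1*, chr5:125796913-125797049, intron 1: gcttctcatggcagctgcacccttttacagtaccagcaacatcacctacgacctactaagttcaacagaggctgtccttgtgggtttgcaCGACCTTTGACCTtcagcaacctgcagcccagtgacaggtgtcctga
*Cd36*, chr5:17330719-17330855, intron 4: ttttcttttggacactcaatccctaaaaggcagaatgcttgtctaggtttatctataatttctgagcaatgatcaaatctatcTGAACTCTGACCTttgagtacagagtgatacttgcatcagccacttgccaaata
*Vldlr*, chr19:27250261-27250397, intergenic: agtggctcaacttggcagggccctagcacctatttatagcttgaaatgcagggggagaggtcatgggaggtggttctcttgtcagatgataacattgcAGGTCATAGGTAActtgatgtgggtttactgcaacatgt
Near the *Vldlr* window lies the PPARα peak with the larger difference in *Gps2* LKO, and its centre had 5 mismatches to DR1.
*Vldlr*, chr19:27251154-27251290, intergenic: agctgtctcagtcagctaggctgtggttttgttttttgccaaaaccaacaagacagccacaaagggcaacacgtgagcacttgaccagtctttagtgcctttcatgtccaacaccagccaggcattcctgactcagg

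To ask how these genes responded to loss of GPS2 in hepatocytes, RNA levels were compared between *Gps2* LKO and WT. *Vldlr*, *Cd36* and *Lipc* were higher in LKO and *Angptl4*, *Scarb1* and *Lrp1* were lower. *Lpl* was the only one of the 7 not called in this comparison. The change of *Vldlr* stood far apart in size from the other 6. Of all 12220 genes tested, 44.8% were called, 23.4% higher and 21.4% lower, so the count of 6 of 7 is to be read against a comparison in which nearly as many genes were called as not. For 5 of the 7 the groups did not overlap, against 39.1% of all genes. The median log2 fold change of the 7 was 0.06, against 0.03 for all genes. In whole liver, fewer cells of a type and less RNA per cell cannot be told apart.

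**Figure D1:**
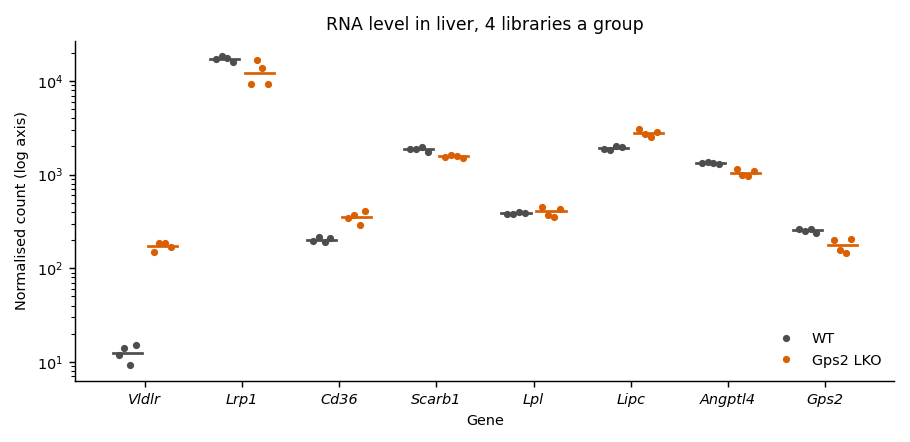
RNA level of each of the 7 genes and *Gps2*, on a log axis, in the 8 RNA-seq libraries of whole liver, as normalized counts (TMM), 4 *Gps2* WT and 4 *Gps2* LKO, each point 1 library and each horizontal line a group mean. *Vldlr* sat at 9.25 to 15.2 in WT and 148 to 188 in LKO, while the groups overlapped for *Lpl* and *Lrp1*.

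Of the receptors, *Vldlr* (chr19:27290974-27328721, plus strand) had 11.8, 14.2, 9.25 and 15.2 normalized counts in the 4 WT libraries and 148, 188, 187 and 169 in the 4 LKO libraries. Every LKO library was thus far above every WT library. The log2 fold change was 3.78 ± 0.16 (SE, adjusted p = 7.61e-10), or 13.7-fold. Even so, *Vldlr* remained the lowest of the 7 in LKO: as reads per kilobase of exon per 1000000 reads (RPKM) it reached 1.24 ± 0.13 (SD, n = 4) there, from 0.09 ± 0.02 in WT.

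*Lrp1* (chr10:126975217-127058204, minus strand), encoding the remnant receptor of hepatocytes, had 17226, 18422, 17550 and 16094 normalized counts in WT and 9371, 16665, 13940 and 9273 in LKO. The LKO libraries scattered widely and 1 of them, the second, lay inside the WT range. Its log2 fold change was -0.49 ± 0.15 (adjusted p = 0.0175). With an exon length of 14891 bases it is the longest transcript of the 7, and with the length correction the value was -0.04 ± 0.06 (adjusted p = 0.661), so the call did not hold. RPKM levels placed *Lrp1* highest of the 7 in WT at 73.1 ± 4.1 and below *Lipc* in LKO at 52.0 ± 15.3.

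Of the scavenger receptors, *Cd36* (chr5:17287508-17394777, minus strand) had 197, 214, 192 and 209 normalized counts in WT and 348, 373, 287 and 406 in LKO. The groups did not overlap, and the log2 fold change was 0.80 ± 0.11 (adjusted p = 5.92e-05). *Scarb1* (chr5:125757457-125821464, minus strand), the HDL receptor, had 1883, 1875, 1959 and 1749 in WT and 1525, 1630, 1586 and 1522 in LKO. Every LKO library was lower, by a small margin (log2 fold change -0.25 ± 0.06, adjusted p = 0.00441). CD36 is also made by macrophages and capillary endothelium. The summed level of the macrophage and Kupffer cell markers was 2440 to 2480 normalized counts in WT and 3275 to 3887 in LKO, and that of the endothelial markers was 2140 to 2259 and 2391 to 2539. Their part in the *Cd36* result was not tested.

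Of the lipases, *Lipc* (chr9:70645936-70800033, minus strand) had 1897, 1851, 2038 and 1974 normalized counts in WT and 3039, 2702, 2499 and 2875 in LKO. The groups were well separated, with a log2 fold change of 0.52 ± 0.07 (adjusted p = 6.39e-05). *Lpl* (chr8:71404390-71431347, plus strand) had 382, 380, 396 and 386 in WT and 456, 370, 356 and 435 in LKO. The WT libraries lay close together inside the LKO range, and its log2 fold change was 0.06 ± 0.09 (adjusted p = 0.591). *Angptl4* (chr17:33910695-33918520, minus strand), the LPL inhibitor, had 1347, 1358, 1327 and 1314 in WT and 1141, 981, 959 and 1101 in LKO, a log2 fold change of -0.36 ± 0.07 (adjusted p = 0.00127). All 4 LKO libraries were below all 4 WT libraries.

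On the RPKM scale, the WT order was *Lrp1*, *Lipc*, *Angptl4*, *Scarb1*, *Lpl*, *Cd36* and *Vldlr*. In LKO *Lipc* moved to the top at 83.3 ± 6.9, with no overlap with *Lrp1*, and the other places were kept. This change of place was not examined with the length correction, with which the lower *Lrp1* value was not called. *Angptl4* stood at 44.2 ± 0.6 in WT and 34.5 ± 2.9 in LKO, and *Scarb1* at 37.9 ± 1.8 and 31.8 ± 1.1. These neighbours were separated in WT, but their ranges in LKO, 31.7 to 37.7 and 30.9 to 33.1, overlapped.

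**Figure D2:**
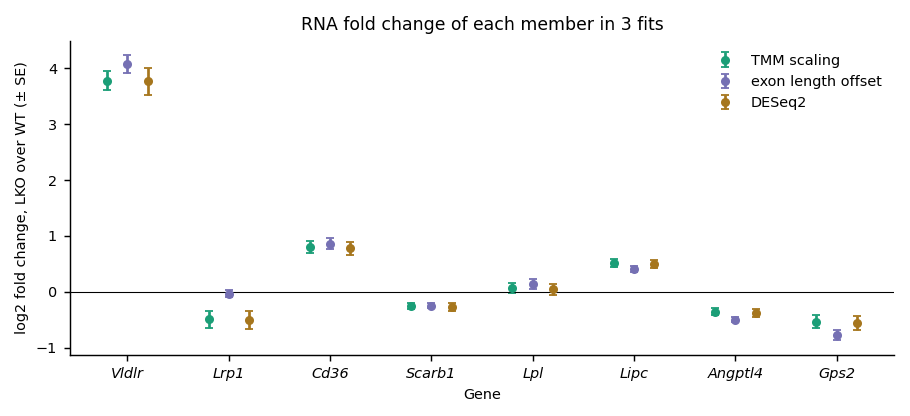
Log2 fold change of RNA in *Gps2* LKO against WT for the 7 genes and *Gps2*, with error bars of 1 SE, in 3 fits: edgeR with TMM scaling, edgeR with an exon length offset, and DESeq2. *Vldlr* at 3.78 with TMM scaling stood above all others in each fit, and *Lrp1* moved from -0.49 to -0.04 with the length offset.

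The genes with the most similar profile were *Trim24* for *Vldlr* (Pearson r 0.998), *Dync1h1* for *Lrp1* (0.998), *Phykpl* for *Cd36* (0.993), *Krtcap2* for *Lpl* (0.966), *Lmo4* for *Lipc* (0.995), *Tpst1* for *Angptl4* (0.992) and *Wdr11* for *Scarb1* (0.984). These are descriptions over the same 8 libraries of log2 normalized counts, taken as the highest of 8561 genes, and the points share library and genotype.

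Other genes of the pathway moved in both directions. Of 45 genes in 4 lists, 44 were tested, of which 21 were higher, 12 lower and 11 not called, with a median log2 fold change of 0.19. Of all genes tested, 23.4% were called higher and 21.4% lower without the length correction. The counts of each list below are to be read against these shares too. With the length correction 16 were higher and 12 lower, with a median of 0.04. Among 14 other lipoprotein receptors and partners tested, 6 were higher and 5 lower. *Lrp2* (megalin) fell from 36.5 to 59.2 normalized counts in WT to 6.54 to 10.8 in LKO (log2 fold change -2.25), and *Sort1*, a sorting receptor for apolipoprotein B, fell from 606 to 702 to 224 to 362 (-1.20). With the length correction these were -1.82 and -0.97. *Lrp5* was also lower (-0.45, length-corrected -0.30) and *Lrpap1*, the chaperone of LRP1, was higher (0.36).

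Among 14 other lipases, cofactors and inhibitors, 9 were higher and 3 lower. *Angptl8*, which takes part in the inhibition of LPL, rose from 540 to 599 normalized counts in WT to 2349 to 3369 in LKO (log2 fold change 2.40). *Pltp*, the phospholipid transfer protein, rose by 1.71, *Apoa5*, an activator of LPL, by 0.80, and *Apoc3*, an inhibitor, by 0.78 (0.43 with the length correction). Thus genes of both activators and inhibitors were among those that rose, and *Angptl4* was lower while *Angptl8* was higher. Of 6 other scavenger receptors, HDL partners and sterol exporters, 1 was higher and 3 lower, with *Abca1* at -0.58 (length-corrected -0.22), *Abcg1* at 0.50, *Scarb2* at -0.45 and *Pdzk1*, which holds SR-BI at the membrane, at -0.21. The *Pdzk1* call was lost without the first or the third WT library (-0.20 and -0.21). Of 10 genes of fatty acid uptake and binding, 5 were higher and 1 lower, with *Fabp4* at 1.13, *Fabp1* at 0.74 (length-corrected 0.31), *Fabp2* at 0.42 (length-corrected 0.12, not called) and *Acsl1* at -0.29. FABP4 is a protein of fat cells and macrophages. The macrophage marker sums given above were also higher in LKO, and their part in the *Fabp4* result was not tested.

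H3K27ac asked whether the marks of active chromatin changed at these genes in *Gps2* LKO. Peaks at *Vldlr* and *Lipc* gained the mark, and the *Vldlr* peak also gained H3K4me3. Of the 39 H3K27ac peaks tested, these 2 were called higher and none lower, against 1.42% of all 47108 peaks called, 1.21% higher and 0.212% lower. At unadjusted p below 0.05, 8 of the 39 passed, against 14.6% of all peaks. For H3K4me3, 1 of 12 was called, against 0.916% of 22814.

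The *Vldlr* peak at chr19:27291045-27294602, over the start of the gene, had 31.6 and 46.3 normalized H3K27ac tags in WT and 96.3 and 86.6 in LKO. Both LKO libraries were above both WT libraries (log2 fold change 1.22 ± 0.20, adjusted p = 0.0322; TMM scaling 1.16, adjusted p = 0.0573). Its H3K4me3 rose from 175 and 152 to 294 and 276 (0.80 ± 0.13, adjusted p = 0.00707). The *Lipc* peak at chr9:70772480-70791531, which holds the leading GPS2 site printed above, had 661 and 622 normalized H3K27ac tags in WT and 931 and 956 in LKO (0.56 ± 0.08, adjusted p = 0.0247). Its H3K4me3 levels were 306 and 192 in WT and 465 and 372 in LKO and were not called. Without either WT library no H3K27ac peak of the 7 genes was called, with the *Vldlr* log2 fold change at 0.98 to 1.53 and that of *Lipc* at 0.51 to 0.60. Without the first LKO library 5 H3K27ac peaks were called, and the H3K4me3 value of *Vldlr* was 0.75 (adjusted p = 0.0546). H3K4me3 calls numbered 2 without the first WT or the second LKO library.

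At the other genes H3K27ac was not called. The peak over *Angptl4* had 1491 and 1394 normalized tags in WT and 1632 and 1771 in LKO, higher in both LKO libraries while the RNA was lower. The peak over the 5′ part of *Lrp1*, 40068 bases wide, had 3602 and 3241 in WT and 3719 and 3310 in LKO. The peak holding the leading *Scarb1* site had 977 and 848 in WT and 971 and 870 in LKO. Both of these pairs overlapped. Over all 9 tested *Cd36* peaks, the summed level was 310 ± 88 (SD, n = 2) in WT and 409 ± 18 in LKO, and 7 of the 9 had log2 fold changes above 0.

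The same mark in the *Ncor* and *Smrt* lines asked which corepressor scaffold it depended on at these genes. In *Ncor* LKO, 6 of 66 peaks were called, all higher, 3 at *Cd36* and 3 at *Lipc*, against 3.12% of 68817 peaks, 2.32% higher and 0.801% lower. In *Smrt* LKO, 0 of 66 were called by edgeR and by DESeq2, where 0% of all 68800 peaks were called. At unadjusted p below 0.05, 13 of the 66 passed, against 5.93% of all peaks. The difference between the lines was itself called at 0 of 66 peaks (0.426% of all peaks), with 5 at unadjusted p below 0.05 (11.2% of all peaks) and 2 called by DESeq2. In the *Ncor* line, 3, 1 and 2 peaks were called without the first, the second and the third WT library, and 3 without the third LKO library.

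**Figure D3:**
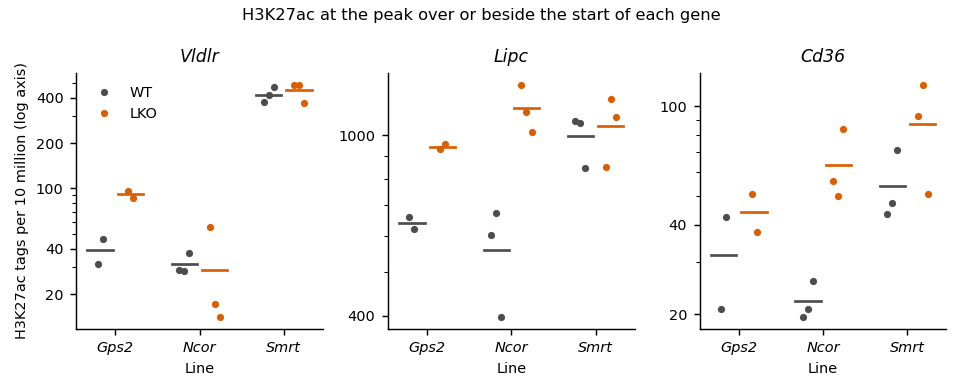
H3K27ac in normalized tags (scaled to 10000000 a library), on log axes, at the peak over or beside an annotated start of *Vldlr*, *Lipc* and *Cd36*, in WT and LKO libraries of the *Gps2*, *Ncor* and *Smrt* lines, each point 1 library and each bar a group mean. In the *Ncor* and *Smrt* lines the *Cd36* start is one inside the gene. The peaks of the *Gps2* line come from another table than those of the other lines. The *Vldlr* peak lay at 368 to 486 in all 6 libraries of the *Smrt* line and at 14.1 to 55.9 in the *Ncor* line, and *Lipc* rose in *Ncor* LKO.

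The *Lipc* peak at chr9:70776651-70791665 had 601, 673 and 397 normalized tags in *Ncor* WT and 1291, 1127 and 1017 in *Ncor* LKO (log2 fold change 1.04 ± 0.17, adjusted p = 0.0135). In the *Smrt* line it had 1075, 1062 and 848 in WT and 848, 1202 and 1098 in LKO, with overlapping groups. The difference between the 2 effects was 0.96 ± 0.25 (adjusted p = 0.116, DESeq2 adjusted p = 0.0288). WT libraries of the *Smrt* line lay near the *Ncor* LKO level, and whether this bears on the difference was not tested. The lines also differed in Y and *Xist* tags, as given above.

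*Cd36* gained H3K27ac in *Ncor* LKO at the peak chr5:17353429-17355579 in intron 1. This peak lies 1106 bases from an annotated start inside the gene, not at the 5′ end of the span given above. It went from 19.6, 20.9 and 25.9 normalized tags to 56.1, 50.0 and 83.9 (1.51 ± 0.22, edgeR adjusted p = 0.00783). A peak in intron 4, chr5:17329685-17330997, which spans the DR1 window printed above, went from 15.9, 13.2 and 17.9 to 24.2, 29.5 and 38.0 (0.96 ± 0.21, adjusted p = 0.0392). Without the second WT library these were 1.47 (adjusted p = 0.0534) and 0.85 (adjusted p = 0.168), and the second peak was also not called without the first WT, the third WT or the third LKO library (0.78 to 1.07). In the *Smrt* line the peak near the start had 43.5, 47.4 and 71.1 in WT and 92.8, 118 and 50.7 in LKO, and the groups overlapped. Over all 21 *Cd36* peaks, 19 had log2 fold changes above 0 in *Ncor* LKO and 17 in *Smrt* LKO. Their medians were 0.42 and 0.43, against -0.003 and 0.006 for all peaks. Peaks of 1 gene share the same libraries and are not independent. The summed level of the 21 peaks was 565 ± 26 (SD, n = 3) in *Ncor* WT and 770 ± 114 in *Ncor* LKO. In the *Smrt* line it was 694 ± 75 in WT and 912 ± 135 in LKO. The groups did not overlap in either line.

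At *Vldlr* the larger difference was between the lines. Its peak at chr19:27291171-27295050 had 28.9, 28.3 and 37.6 normalized tags in *Ncor* WT and 55.9, 17.1 and 14.1 in *Ncor* LKO. In the *Smrt* line it had 372, 415 and 467 in WT and 483, 486 and 368 in LKO. The WT means were 31.6 and 418, a ratio of 13.2. An upstream peak, chr19:27250436-27253416, had WT means of 7.02 and 49.1. It holds the intergenic *Vldlr* window printed above without a DR1 match and begins past the window with the match. Of 48338 peaks with a mean of at least 10 in either WT group, 0.459% were at least 8-fold higher in the *Smrt* line. The absence of Y tags and the high *Xist* peak moved with this difference, and their part in it cannot be told apart from the line. Of the 41 peaks of the 7 genes at this level, 3 were at least 2-fold higher in the *Smrt* line, both of these and the *Cd36* peak near the start, and 1 *Scarb1* peak was at least 2-fold lower, against 5.57% and 5.41% of all peaks at this level.

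GPS2 binding in the *Gps2* line was compared where GPS2 itself was lost from hepatocytes. The leading sites were chosen by their tags in this same WT library, so their lower LKO values are no independent check of them. With 1 library a group there is no test and no replicate check. All 69 GPS2 peaks of the 7 genes were at least 2-fold lower in LKO, as were 99.3% of all 49018 peaks. *Scarb1* had 22 of them and *Lipc* 24, and *Vldlr* had 1. The leading *Lrp1* site had 67.1 normalized tags in WT and 0 in LKO, at least 33.1-fold lower against a floor of 3 tags. The leading *Lipc* site had 57.4 and 0 and the leading *Angptl4* site 57.4 and 0.68. The *Vldlr* site was the weakest, at 9.03 (14 tags counted) in WT and 2.03 (3 tags counted) in LKO, with exact 95% Poisson intervals of 4.94 to 15.2 and 0.42 to 5.93 that cover counting error only.

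**Figure D4:**
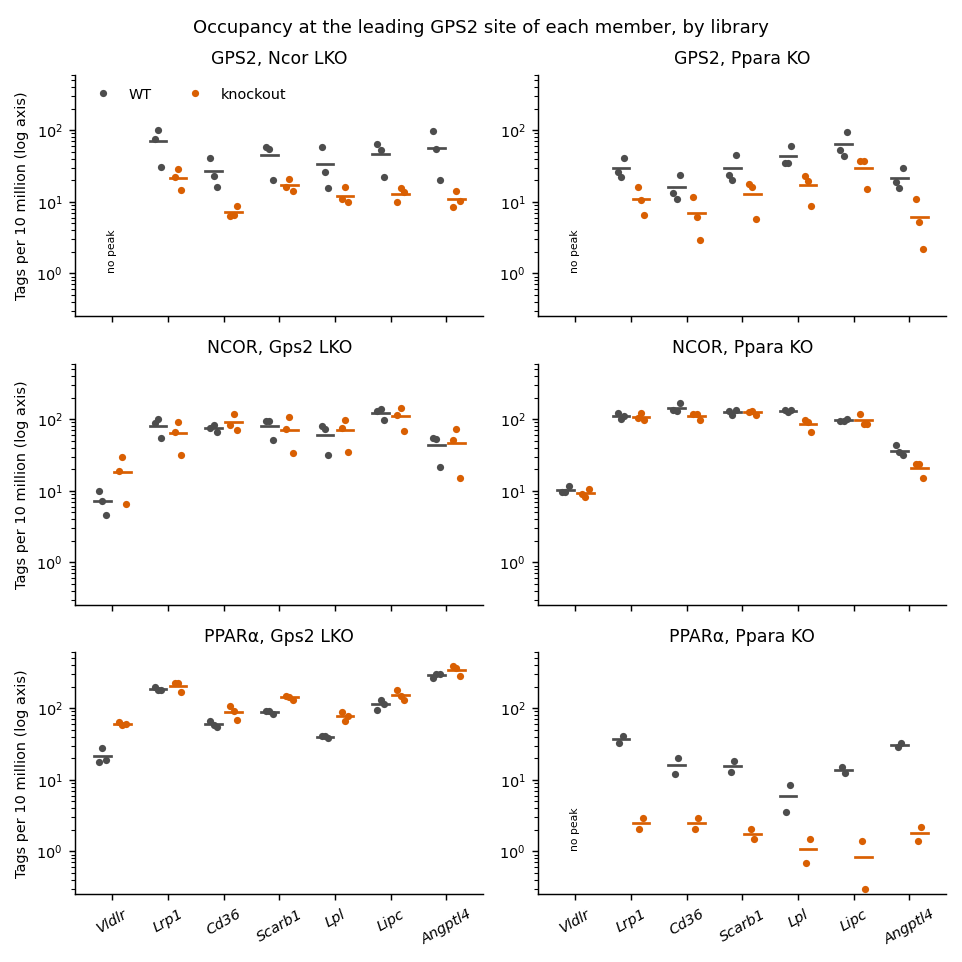
Normalized tags (scaled to 10000000 a library) at the leading GPS2 site of each gene, on log axes where a value of 0 is drawn at 0.3, for GPS2 in the *Ncor* and *Ppara* lines, NCOR in the *Gps2* and *Ppara* lines and PPARα in the *Gps2* and *Ppara* lines. Each point is 1 library and each bar a group mean, with the 3 PPARα WT libraries of the *Gps2* line drawn apart although they were counted as 1 sample. PPARα at the *Vldlr* site went from 22.0 to between 58.7 and 63.2 in *Gps2* LKO, and GPS2 had no peak there in the *Ncor* and *Ppara* tables.

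GPS2 binding was then compared where NCOR or PPARα was absent. In *Ncor* LKO, 0 of 81 peaks were called by edgeR, against 0.0338% of all 56278. At unadjusted p below 0.05, 38 of them passed, against 34.3% of all peaks, and 72 were on the lower side. The median log2 fold change was -1.25, near the -1.12 of all peaks, and TMM scaling, which removes such a shift, called 2, 1 higher and 1 lower. The share of tags in peaks was 8.23%, 7.82% and 3.07% in WT and 2.45% to 3.15% in LKO. The leading *Angptl4* site had 96.7, 54.9 and 20.4 normalized tags in WT and 8.38, 14.2 and 10.4 in LKO, with no overlap (-2.38 ± 0.64, adjusted p = 0.0761), which is -1.26 relative to the median of all peaks and -1.23 with TMM scaling (adjusted p = 0.0115). Leading sites of *Lrp1*, *Cd36* and *Lipc* also were lower without overlap, as were 26.6% of all peaks, and those of *Lpl* and *Scarb1* overlapped. The third WT library was the lowest of the WT libraries at all 6 leading sites matched, and without it 57 of 81 peaks were called, as were 59.5% of all peaks.

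In *Ppara* KO, 0 of 52 GPS2 peaks were called by edgeR, against 0.273% of 27842, with 23 at unadjusted p below 0.05 (23% of all peaks) and 51 of 52 on the lower side. The median was -1.19, against -0.93 for all peaks. The leading *Angptl4* site had 18.7, 15.6 and 30.0 in WT and 10.9, 5.30 and 2.16 in KO, the leading *Lpl* site 34.7, 35.1 and 60.0 against 22.6, 19.7 and 8.65, and the leading *Cd36* site 13.2, 11.1 and 23.9 against 11.7, 6.05 and 2.88. Only the *Cd36* groups overlapped among the 6 leading sites matched in this table, none of which was at *Vldlr*, and of all peaks 31.3% were lower without overlap.

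The question for NCOR was whether its binding changed where GPS2 was lost. Of 96 peaks, 0 were called by edgeR (0.0173% of 80813) and 2 with TMM scaling, 4 had unadjusted p below 0.05 (2.79% of all peaks), and 52 lay above and 44 below 0. *Vldlr* held 3 of those 4, and all 6 of its NCOR peaks lay above 0. The leading *Vldlr* site had 9.95, 7.12 and 4.64 normalized tags in WT and 18.8, 29.3 and 6.51 in LKO. The lowest LKO library was inside the WT range, and the log2 fold change was 1.31 ± 0.50 (adjusted p = 1.00, TMM adjusted p = 0.0414). At the leading *Lrp1* site NCOR had 88.6, 99.6 and 55.1 in WT and 67.1, 91.5 and 31.5 in LKO, and at the *Scarb1* site 93.6, 95.8 and 51.6 against 73.2, 106 and 33.6.

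In *Ppara* KO, 9 of 121 NCOR peaks were called lower and none higher, where 2.64% of all 115042 peaks were called, 2.51% lower and 0.136% higher. The called peaks were 2 each at *Vldlr*, *Lpl* and *Lipc* and 1 each at *Cd36*, *Lrp1* and *Scarb1*. None of the 9 *Angptl4* peaks was called, with 6 below 0 and 3 above. Its leading site was at -0.82, which is -0.50 relative to the median of all peaks. TMM scaling called 2 and DESeq2 none, and without the third WT library 0 were called. Without the first WT library 5 were called, and without the first or the third KO library 2 and 4. The median was -0.28, against -0.32 for all peaks. The *Vldlr* peak chr19:27253067-27253236 had 6.50, 6.88 and 11.0 normalized tags in WT and 0.82, 0.67 and 1.42 in KO (-2.94 ± 0.77, adjusted p = 0.0105), which is -2.62 relative to the median. The neighbouring *Vldlr* peak chr19:27251149-27251321 had 9.75, 10.3 and 20.2 against 1.63, 4.04 and 5.69 (-1.77 ± 0.47, adjusted p = 0.0115). No library of one group reached the other at either peak. Without the third WT library their values were -2.67 (adjusted p = 0.165) and -1.35 (adjusted p = 0.312), and the second was -1.45 (adjusted p = 0.140) without the first KO library.

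At *Cd36*, NCOR at chr5:17387433-17387567 went from 6.50, 13.8 and 21.1 to 5.72, 2.02 and 0.71 (-2.31 ± 0.50, adjusted p = 0.000663). The leading *Lpl* site went from 133, 125 and 136 to 98.1, 91.6 and 66.2 (-0.63 ± 0.18, adjusted p = 0.0303). Without the third WT library the *Cd36* value was -1.86 (adjusted p = 0.147), and the *Lpl* call was lost without any 1 library but the second WT library (-0.47 to -0.74) and with TMM scaling (-0.33). By contrast, NCOR at the leading *Vldlr* site in intron 4 was 9.75, 9.46 and 11.8 in WT and 8.99, 8.08 and 10.7 in KO, with overlap. At the leading *Scarb1* site it was 130, 116 and 136 against 127, 131 and 115.

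PPARα binding was higher in *Gps2* LKO at peaks of all 7 genes, but so it was at peaks in general. Of 117 peaks, 31 were called higher and 1 lower, where 21.7% of all 102519 were called, 21.5% higher and 0.147% lower. The median log2 fold change was 0.68, against 0.62 for all peaks. The share of tags in peaks was 19.2% to 21.9% in WT and 28.9% to 32.1% in LKO, and TMM scaling called 0 higher and 1 lower. DESeq2 called 0. With WT summed to 1 sample, only the LKO libraries gave spread to the edgeR tests of this comparison. With the 3 WT libraries as 3 samples 57 were called, against 36.9% of all peaks. The called peaks were 11 at *Scarb1*, 7 at *Lipc*, 4 at *Vldlr*, 3 each at *Lrp1* and *Lpl*, 2 at *Cd36* and 1 at *Angptl4*, plus the lower one at *Lrp1*. Without the third WT or the third LKO library, 21 and 17 were called in all.

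*Vldlr* had the largest median over its 10 peaks, 1.08, and all 10 lay above 0. Its leading GPS2 site, printed above, had 22.0 normalized PPARα tags in the summed WT libraries and 63.2, 58.7 and 59.2 in LKO (1.45 ± 0.29, adjusted p = 6.15e-05), or 0.83 relative to the median of all peaks. The upstream peak chr19:27251127-27251317, also printed above, had 9.52 in WT and 32.2, 31.3 and 25.8 in LKO (1.61 ± 0.37, adjusted p = 0.000578), or 1.00 relative to that median. With TMM scaling these were 0.85 (adjusted p = 0.110) and 1.01 (adjusted p = 0.198). The *Vldlr* peak with the DR1 match had 4.03 in WT and 13.8, 2.84 and 12.9 in LKO and was not called.

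At *Lpl*, whose RNA was not called, PPARα at the leading site went from 39.9 to 87.3, 66.3 and 76.8 (0.94 ± 0.25, adjusted p = 0.00447). At *Scarb1*, whose RNA was lower, it went from 89.4 to 149, 144 and 130 (0.65 ± 0.25, adjusted p = 0.0439), and the peak with the DR1 match had 38.5 in WT and 72.4, 79.6 and 81.5 in LKO. The leading *Angptl4* site was the strongest of the 7, at 289 in WT and 392, 363 and 281 in LKO, with overlap, and the leading *Lrp1* site had 185 against 228, 223 and 168. At *Lipc*, peaks at chr9:70767173-70767363 and chr9:70738259-70738438 rose by 1.62 ± 0.51 and 1.54 ± 0.52 on the log2 scale (adjusted p = 0.0138 and 0.0214) from a WT level of 4.40 at each. The 1 peak that was lower, chr10:127041726-127041901 in intron 6 of *Lrp1*, went from 31.5 to 29.9, 14.2 and 13.5 (-0.80 ± 0.31, adjusted p = 0.0489). With TMM scaling *Lpl* was 0.33, *Scarb1* 0.04 and both *Lipc* peaks 1.03 and 0.95, none of them called. The *Scarb1*, *Lipc* and lower *Lrp1* calls were each also lost without 1 of 2 or more single libraries, the third LKO library among them for both *Lipc* peaks (1.54 and 1.59) and for *Lrp1* (-0.54) and the second LKO library for *Scarb1* (0.64).

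In *Ncor* LKO, 0 of 106 PPARα peaks were called by edgeR, against 0.196% of 86168, with 12 at unadjusted p below 0.05 (5.23% of all peaks). TMM scaling called 5 and DESeq2 2, and 2 were called without the third WT library. The median of the 106 was 0.26, against 0.10 for all peaks. By gene it was 0.82 over the 12 *Lpl* peaks, 0.57 over the 14 *Cd36* peaks, all 14 of which lay above 0, 0.57 over the 6 at *Vldlr*, 0.22 at *Lipc*, 0.18 at *Scarb1*, 0.07 at *Lrp1* and -0.02 at *Angptl4*. The leading *Lpl* site had 39.5, 31.0 and 19.5 in WT and 54.8, 49.1 and 69.9 in LKO, without overlap and not called. The leading *Vldlr* site had 21.6, 17.6 and 13.3 against 26.8, 19.2 and 31.0, with overlap.

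In *Ppara* KO, which checked the antibody, 27 of 65 PPARα peaks were called lower and none higher, where 27.6% of all 40241 were called, 27.6% lower and 0.0174% higher. The median was -1.88, against -1.68 for all peaks, and the share of tags in peaks was 2.14% and 2.44% in WT and 0.65% and 0.58% in KO. TMM scaling called 5 and DESeq2 4, and without either WT library 0 were called. All 6 *Angptl4* peaks were called, 9 of 22 at *Lipc*, 8 of 19 at *Scarb1*, 3 of 7 at *Cd36*, 1 of 7 at *Lrp1* and none at *Lpl* or *Vldlr*. The *Angptl4* peak chr17:33916504-33916803 had 38.9 and 51.2 normalized tags in WT and 2.06 and 1.47 in KO (-4.60 ± 0.39). Its leading GPS2 site had 28.3 and 32.1 against 1.37 and 2.20 (-4.02 ± 0.43), and that of *Lrp1* 32.6 and 40.5 against 2.06 and 2.93 (-3.83 ± 0.38). Without 1 WT library these 3 values were -4.78 to -4.39, -4.11 to -3.93 and -3.98 to -3.67. The single *Vldlr* peak of this table had group means of 0.35 and 0.34.

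Pol II was measured in 1 library a group, so the values have no test. Of 22 peaks at *Angptl4*, *Scarb1*, *Lrp1*, *Lipc* and *Vldlr*, 2 were at least 2-fold higher in LKO and 1 at least 2-fold lower, against 12.6% of all 31434 peaks past this fold in either direction, 7.5% higher and 5.06% lower. *Cd36* and *Lpl* had no Pol II peak. The *Vldlr* peak 1977 bases past the start had 15.4 normalized tags in WT (18 tags counted, exact 95% Poisson interval 9.15 to 24.4) and 36.2 in LKO (43 tags counted, 26.2 to 48.7), and the peak at its start, below this fold, had 9.44 and 15.1. At the promoter of *Angptl4* Pol II was 254 in WT and 257 in LKO, at that of *Scarb1* 202 and 196, and at *Lrp1* 188 and 154 in the peak past the start and 105 and 116 in the peak before it. At the *Lipc* promoter, where RNA was higher in LKO, it was 13.7 (7.85 to 22.3) in WT and 7.57 (3.46 to 14.4) in LKO, with overlapping intervals.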

How the data were processed

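Per the labels and methods, mouse liver RNA was poly(A)-selected and ChIP-seq reads were aligned to mm9 (Bowtie2 in the submitters' notes) with peaks called and annotated to the nearest gene by HOMER. The authors deposited raw read counts per gene for RNA-seq and raw tag counts per merged peak for ChIP-seq, with the total tags of each library in the file headers. The methods name HISAT2 for the alignment of RNA reads, whereas the column names of the RNA table end as the output of STAR does, so the aligner is uncertain. The methods name HOMER and the submitters' notes featureCounts for the counting of RNA reads. Exon coordinates of the RNA table lie on GRCm38, so gene positions were taken from the mm9 annotation (GENCODE). Columns of the authors' own RNA comparison (fold changes and p-values) were not used, nor were the 2 input libraries.

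Counts were tested with edgeR 4.0.16 quasi-likelihood fits in R 4.3.3 and adjusted by Benjamini-Hochberg over all rows of a comparison at 0.05. RNA used TMM scaling and filterByExpr. ChIP counts used the header totals as library sizes and are given scaled to 10000000 tags a library (normalized tags), and histone peaks of the *Gps2* line were tested where at least 2 libraries had a peak of the mark in the deposited peak lists, whose score was 1 on every line and was not used. Normalized RNA counts are scaled to the mean library size. The *Ncor* and *Smrt* lines were compared by an interaction term. Alternatives were TMM or RLE scaling, other filters, DESeq2 1.42.0, an exon length offset, a replicate block and leaving out each library, and those of RNA were applied to the pathway and marker lists after seeing the data. A comparison was to be paired if same-numbered libraries deviated together (correlation over 0.1 in all of at least 3 pairs), and none met this rule. Comparisons with 2 libraries a group could not meet it. Their correlations were 0.18 for H3K27ac and 0.24 for H3K4me3 in the *Gps2* line and 0.04 for PPARα in the *Ppara* line. The fits were checked on simulated counts. The WT means of the 2 lines were compared with a pseudocount of 0.5.

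The 7 genes and the lists were chosen with earlier results of these data known. Named were all 7 genes, *Gps2*, up to 4 called pathway genes a list with no overlap of groups, the gene most like each member (at least 100 normalized counts on average), the leading GPS2 site and the peak of each other table that covers its centre or lies within 500 bases, promoter peaks (within 1000 bases of the start), and up to 3 called peaks in each direction. The *Scarb1*, *Cd36* and *Vldlr* peaks with DR1 matches, and other peaks and sums described without a test were named after their values were seen.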

Additional observations from a re-analysis of the deposited data

How the results depend on the processing

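All 6 RNA calls were kept with RLE scaling, no filter and each library left out (6 called each time), and 5 with the exon length offset, where *Lrp1* was lost (-0.04). Without the first LKO library the *Lpl* value turned to -0.0016, and it lay between that and 0.12 over all libraries left out. In the pathway lists, 27 to 35 genes were called under these alternatives, chosen for them after seeing the data, against 33. Counted over single genes or peaks and alternatives, 606 values kept their direction and side of the threshold, 88 lost the call and 16 gained one. With TMM scaling the peaks called numbered 1 for H3K27ac in *Gps2* LKO, 2 for GPS2 in *Ncor* LKO, 2 for NCOR in *Gps2* LKO, 2 for NCOR in *Ppara* KO, 1 for PPARα in *Gps2* LKO, 5 for PPARα in *Ncor* LKO and 5 for PPARα in *Ppara* KO. TMM removes a shift common to all peaks, and whether that shift is enrichment or occupancy was not tested. With DESeq2 they numbered 2 for the difference of the *Ncor* and *Smrt* lines, 2 for GPS2 in *Ncor* LKO, 0 for NCOR in *Ppara* KO, 0 for PPARα in *Gps2* LKO, 2 for PPARα in *Ncor* LKO and 4 for PPARα in *Ppara* KO. filterByExpr called 7 GPS2 peaks in *Ncor* LKO and 1 in *Ppara* KO, testing all peaks of the table called 0 H3K4me3 peaks, and treating the 3 PPARα WT libraries of the *Gps2* line as 3 samples called 57 peaks. The cause of these changes was not tested.

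Leaving out 1 library at a time, the peaks called ranged from 0 to 5 for H3K27ac and 1 to 2 for H3K4me3 in *Gps2* LKO, 1 to 6 for H3K27ac in *Ncor* LKO, 0 to 57 for GPS2 in *Ncor* LKO, 0 to 8 for NCOR and 0 to 27 for PPARα in *Ppara* KO, and 17 to 39 and 0 to 2 for PPARα in *Gps2* and *Ncor* LKO. It was 0 in each case for H3K27ac in *Smrt* LKO, the difference of the lines, GPS2 in *Ppara* KO and NCOR in *Gps2* LKO. Where 1 library was left in a group, it was assumed to vary like the other group. The replicate number as a block, for samples that share only a number, called 6 genes in RNA (5 with the length offset), 5 H3K4me3 peaks in *Gps2* LKO, 3 H3K27ac peaks in *Ncor* LKO, 26 GPS2 peaks in *Ncor* LKO, 4 NCOR peaks and 0 PPARα peaks in *Ppara* KO, and 54 PPARα peaks in *Gps2* LKO. Correlations of same-numbered deviations lay between -0.15 and 0.27 over all comparisons. Depth limits the weakest sites most, such as the *Vldlr* GPS2 site with 14 tags in WT.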

Other observations

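*Cux2*, a liver gene known for higher expression in female than in male mice, was named after its values were seen. It had 1.9 to 10.1 normalized counts in the 4 *Gps2* WT RNA libraries and 182 to 306 in the 4 LKO libraries (log2 fold change 5.49, edgeR adjusted p = 3.46e-09). The Y-linked genes *Ddx3y* and *Eif2s3y* were present in all 8 libraries, at 1212 to 1518 and 897 to 1132 normalized counts, and *Xist* lay at 0 to 17.8. The *Vldlr* peak over its start had the largest H3K27ac ratio, 13.2, between the WT groups of the *Smrt* and *Ncor* lines among the 41 peaks of the 7 genes compared, and those lines differed in Y and *Xist* tags. Whether these values are related was not tested.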
